A study of Homo sapiens with 6 samples.

Results

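The genes that encode the subunits of the hypoxia-inducible factors (HIFs) were examined in a head and neck squamous cell carcinoma (HNSCC) line under low oxygen. They were taken by symbol from the deposited count table, and all 5 (HIF1A, EPAS1, HIF3A, ARNT and ARNT2) were among its 21776 genes. The cells carry the label SCC25, an established line from an oral tumor, with the genotype WT, and they were kept for 12 h either in 1% O2 (hypoxia) or in an air incubator (normoxia). There are 3 libraries per condition, made from total RNA with an mRNA-seq kit, and their total counts were 37278703, 29637189 and 29981208 for normoxia (replicates 1 to 3) against 30186813, 36076088 and 32272716 for hypoxia (replicates 1 to 3). The study's own account of its transcriptome names SCC9 in one place, so the identity of the line rests on the labels. It is a single cultured line without the stroma or vessels of a tumor. No label says whether the replicates were separate cultures, so the p-values measure the spread between these libraries, which may be technical.

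HIF is a pair of proteins: an alpha subunit, which oxygen destabilizes, and a beta subunit, which is present at any oxygen level. Prolyl hydroxylases mark the alpha subunit when oxygen is present, the VHL ubiquitin ligase recognizes the mark, and the proteasome removes the protein. Under hypoxia the alpha subunit escapes, joins its beta partner in the nucleus and binds hypoxia response elements, whose core reads ACGTG or GCGTG. HIF1A encodes HIF-1 alpha, EPAS1 encodes HIF-2 alpha and HIF3A encodes HIF-3 alpha, while ARNT (HIF-1 beta) and its relative ARNT2 encode beta partners. Oxygen acts on the alpha proteins, so the RNA levels described here are a separate layer from protein abundance.

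The promoters of HIF1A and EPAS1 are shown because these genes moved in opposite directions. Each sequence holds the 250 bases before a RefSeq transcription start (GRCh38.p14), for HIF1A the first of its starts in the table, in the direction of the gene, and capitals mark the core of a hypoxia response element. The window of HIF1A is chr14:61695263-61695512 (+) and that of EPAS1 is chr2:46297157-46297406 (+).
HIF1A: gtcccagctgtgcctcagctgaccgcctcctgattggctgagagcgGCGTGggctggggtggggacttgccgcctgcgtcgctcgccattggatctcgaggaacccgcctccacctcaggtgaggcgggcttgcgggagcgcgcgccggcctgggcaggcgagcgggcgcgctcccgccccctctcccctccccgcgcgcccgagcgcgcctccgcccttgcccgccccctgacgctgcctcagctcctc
EPAS1: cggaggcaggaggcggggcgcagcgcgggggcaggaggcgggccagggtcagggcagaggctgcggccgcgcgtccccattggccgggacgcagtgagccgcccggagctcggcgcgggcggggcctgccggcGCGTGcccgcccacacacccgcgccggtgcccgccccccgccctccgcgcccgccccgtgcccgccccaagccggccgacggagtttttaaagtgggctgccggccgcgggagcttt

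Each of these promoters held 1 match, GCGTG, which begins 204 bases before the start in HIF1A and 117 bases before it in EPAS1. ACGTG and GCGTG were searched on both strands, and an ACGTG match can overlap the E-box CACGTG. At least 1 match was present in 43.2% of the 35114 promoter windows of this length in the RefSeq table, so a single match is common. A further RefSeq start of HIF1A, with the window chr14:61697462-61697711 (+), had 0 matches. RefSeq windows were found for 4 of the 5 genes: the first start of HIF3A had 3 matches, which 7.76% of windows reach, its later starts had 0, and ARNT had 0.

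HIF1A fell and EPAS1 rose under hypoxia, so that the most abundant HIF alpha transcript changed from HIF1A to EPAS1. The beta partners ARNT and ARNT2 rose, and HIF3A was at the limit of detection in both conditions. Levels are compared between genes as deposited FPKM (fragments scaled to the length of the gene and the total of the library). Changes were tested on the counts with edgeR's quasi-likelihood test, and p-values were adjusted over the 14255 genes left by its low-count filter. Of these genes, 77.8% had an adjusted p-value under 0.05 (39.2% were higher under hypoxia and 38.5% lower), and in 80.5% the conditions did not overlap. All 4 subunit genes that passed the filter also passed the test, 3 as higher and 1 as lower. Most genes were called in this comparison, and the number of subunit genes called is near that background.

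**Figure D1:**
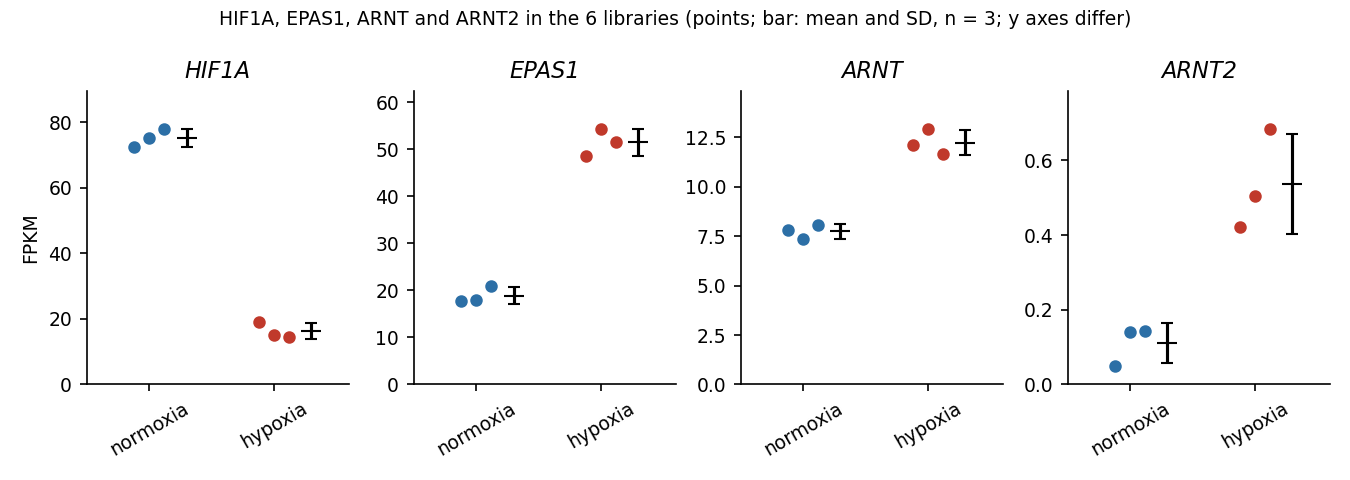
FPKM (y axis, a separate scale for each gene, from 0) of HIF1A, EPAS1, ARNT and ARNT2 in the 3 normoxia and 3 hypoxia libraries. Points are libraries, and the bar beside them is the mean with its SD (n = 3). HIF1A lies between 14.5 and 19.0 FPKM under hypoxia, below all normoxia libraries, and the other 3 genes lie above them.

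HIF1A is the alpha subunit that drives the acute response to low oxygen in most tissues. Its counts were 11299, 9336 and 9796 in the normoxia libraries and 2410, 2286 and 1964 in the hypoxia libraries. The corresponding FPKM were 72.3, 75.1 and 77.9 against 19.0, 15.1 and 14.5. Every hypoxia library lay far below every normoxia library. This gap was wide next to the spread within each condition, where hypoxia replicate 1 was the highest of the hypoxia libraries. The log2-fold change was -2.26 (standard error, SE, 0.083, edgeR quasi-likelihood adjusted p = 2.08e-13), a level 4.79-fold lower under hypoxia. Only 117 of the 14255 tested genes had a more negative log2-fold change. Deposited FPKM gave -2.15 on the log2(FPKM + 1) scale (SE 0.085, adjusted p = 7.82e-09 by limma, which called 80.9% of 10976 genes). In bulk RNA, fewer transcripts per cell and fewer cells that carry them cannot be told apart.

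EPAS1, the alpha subunit best known from endothelium, kidney and other specialized cells, moved the other way. Its counts were 3611, 2887 and 3422 in normoxia and 7996, 10678 and 9068 in hypoxia. On the FPKM scale the level was 18.9 ± 1.80 (SD, n = 3) in normoxia and 51.5 ± 2.85 (SD, n = 3) in hypoxia. The lowest hypoxia library, at 48.6 FPKM, was above the highest normoxia library, at 20.9 FPKM. Its log2-fold change was 1.40 (SE 0.065, edgeR quasi-likelihood adjusted p = 3.48e-12), or 2.64-fold. A larger increase was measured for 2029 tested genes, so the rise of EPAS1 stands less far out among all genes than the fall of HIF1A.

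HIF3A encodes an alpha subunit with splice forms that can restrain the other HIFs. It had 1 read in hypoxia replicate 1 and 0 reads in each of the other 5 libraries. A count of 3 would correspond to between 0.00992 and 0.0125 FPKM, depending on the library, and a level below that may be missed at this depth. The 1 read in hypoxia replicate 1 corresponds to 0.00408 FPKM. The gene did not pass the filter on low counts, so no fold change is given. Splice forms of HIF3A, or of any other subunit, are not separated in a table of genes.

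ARNT is the common beta partner of the HIF alpha proteins and of the aryl hydrocarbon receptor. Its counts were 1456, 1086 and 1209 in normoxia and 1827, 2328 and 1878 in hypoxia. FPKM rose from 7.74 ± 0.374 to 12.2 ± 0.642 (SD, n = 3 each), with no overlap between the conditions. The log2-fold change was 0.61 (SE 0.061, edgeR quasi-likelihood adjusted p = 6.61e-08), the smallest in size among the 4 subunit genes tested.

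ARNT2 is a paralog of ARNT that is known mainly from neural tissue. It was rare, with 12, 27 and 28 counts in normoxia and 83, 119 and 144 counts in hypoxia. All hypoxia libraries were above all normoxia libraries, although the spread relative to the mean was larger than for HIF1A, EPAS1 or ARNT. The log2-fold change was 2.26 (SE 0.34, edgeR quasi-likelihood adjusted p = 9.72e-06), with a SE larger than that of HIF1A, EPAS1 or ARNT. Leaving out single libraries moved it to between 1.85 (normoxia replicate 1 omitted) and 2.49 (normoxia replicate 3 omitted). Its level stayed low, at 0.537 ± 0.134 FPKM (SD, n = 3) under hypoxia against 0.111 ± 0.0532 FPKM (SD, n = 3) under normoxia. ARNT2 made up 4.22% ± 1.16 of the summed FPKM of both beta genes under hypoxia and 1.41% ± 0.683 under normoxia (SD, n = 3 each).

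**Figure D2:**
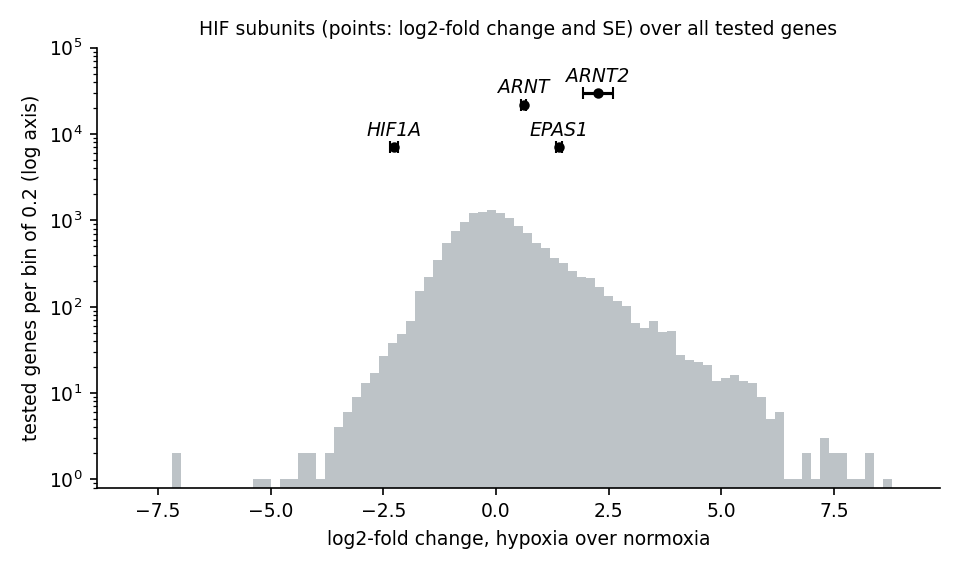
Histogram of the log2-fold changes (x axis, hypoxia over normoxia) of the 14255 tested genes in bins of 0.2 (y axis, number of genes, log scale), with HIF1A, EPAS1, ARNT and ARNT2 as points with SEs. The heights of the points are arbitrary. HIF1A, at -2.26, lies in the thin left tail, with 117 genes further out.

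In normoxia, the order of the levels was HIF1A, EPAS1, ARNT, ARNT2 and HIF3A. Under hypoxia, EPAS1 came first, followed by HIF1A and ARNT. HIF1A (14.5 to 19.0 FPKM) and ARNT (11.6 to 12.9 FPKM) lay close to each other there, and HIF1A was above ARNT in each of the 3 libraries. The other neighbours in both orders were further apart than the spread of their libraries, except that HIF3A was at or near 0.

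The share of EPAS1 in the summed FPKM of the 3 alpha genes was 19.7%, 19.2% and 21.2% in normoxia and 71.8%, 78.2% and 78.0% in hypoxia. This was a difference of 55.99 percentage points (SE 2.18, p = 0.1 in a two-sided exact permutation test, which cannot go lower with 3 libraries per condition). The ratio of EPAS1 to HIF1A went from 0.251 ± 0.016 to 3.23 ± 0.589 (SD, n = 3 each), which is a difference of 3.67 on the log2 scale (SE 0.17, two-sided exact permutation test, p = 0.1). Hypoxia replicate 1, with the highest HIF1A level of the hypoxia libraries, had the lowest ratio there, 2.55. EPAS1 rose by more than ARNT: the log2 ratio of EPAS1 to ARNT was 1.28 ± 0.095 in normoxia and 2.07 ± 0.071 in hypoxia (SD, n = 3 each, no overlap).

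**Figure D3:**
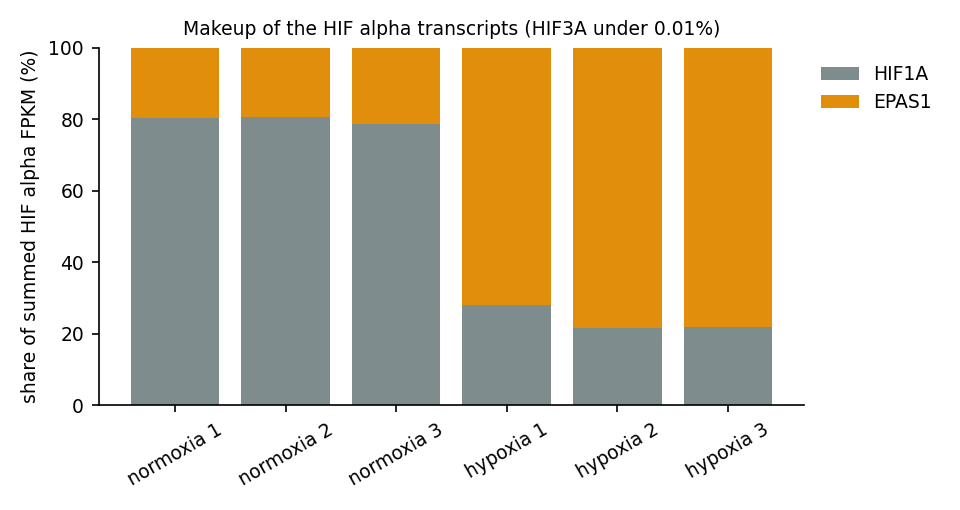
Stacked bars for the 6 libraries (x axis) with the shares of HIF1A and EPAS1 in the summed FPKM of HIF1A, EPAS1 and HIF3A (y axis, percent). EPAS1 holds between 19.2% and 21.2% in the normoxia libraries and between 71.8% and 78.2% in the hypoxia libraries.

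The sum of the alpha transcripts fell while that of the beta transcripts rose. The summed FPKM of the 3 alpha genes was 93.997 ± 4.49 in normoxia and 67.7 ± 1.68 in hypoxia (SD, n = 3 each), and the sum of ARNT and ARNT2 was 7.85 ± 0.371 and 12.8 ± 0.580 (SD, n = 3 each). In normoxia, the alpha transcripts outnumbered the beta transcripts 11.98-fold (SD 0.50, n = 3), and under hypoxia 5.31-fold (SD 0.120, n = 3). On the log2 scale, this ratio was lower by 1.17 under hypoxia (SE 0.040, two-sided exact permutation test, p = 0.1), and the conditions did not overlap.

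Antisense RNAs are transcribed from the opposite strand of the HIF1A locus on chromosome 14. HIF1A-AS1 lies at the 5′ end of HIF1A, HIF1A-AS2 at its 3′ end, and HIF1A-AS3 spans most of the gene. Of the 5 antisense or divergent RNAs listed for the subunit genes, 3 were in the count table, all at HIF1A. HIF1A-AS2 and HIF1A-AS3 rose under hypoxia, opposite in direction to HIF1A.

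HIF1A-AS3 had 9, 26 and 27 counts in normoxia and 429, 762 and 623 in hypoxia. That is a log2-fold change of 4.77 (SE 0.26, edgeR quasi-likelihood adjusted p = 2.18e-11). HIF1A-AS2 went from 3, 3 and 6 counts to 121, 259 and 135, with a log2-fold change of 5.28 (SE 0.38, edgeR quasi-likelihood adjusted p = 9.57e-10). HIF1A-AS1 had 6, 16 and 8 counts in normoxia and 11, 22 and 16 in hypoxia, which overlap (log2-fold change 0.59, SE 0.50, edgeR quasi-likelihood adjusted p = 0.289). Together, HIF1A-AS2 and HIF1A-AS3 had 22.8%, 44.7% and 38.6% as many counts as HIF1A in hypoxia replicates 1 to 3 and at most 0.337% in the normoxia libraries.

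**Figure D4:**
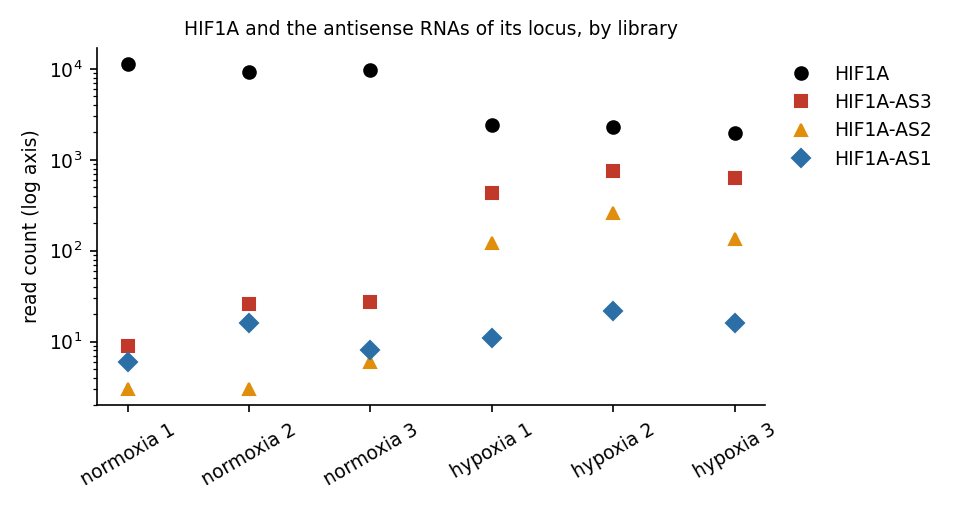
Read counts (y axis, log scale) of HIF1A and its 3 antisense RNAs in the 6 libraries (x axis). HIF1A drops from at least 9336 to at most 2410 counts, and HIF1A-AS3 climbs from at most 27 to at least 429.

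Reads of overlapping genes cannot be assigned to a strand here, since strand-aware counting is not stated. In the RefSeq gene table the span of HIF1A-AS2 covers 1220 bases at the end of HIF1A, and the length implied by its FPKM, 2051 bases, is that of the whole span. In normoxia, HIF1A-AS2 had at most 6 counts while HIF1A had at least 9336, so at most 6 reads of HIF1A can have been counted for HIF1A-AS2 in any normoxia library. The names differ between annotations: GENCODE v29 calls the gene with the span of the RefSeq HIF1A-AS3 HIF1A-AS2, and it has no gene with the span of the RefSeq HIF1A-AS2. The names used here are those of RefSeq, matched by Entrez number. In GENCODE v29 the gene with the span of the RefSeq HIF1A-AS3 shares 0 exonic bases with HIF1A, and HIF1A-AS1 shares 117. When all counts of HIF1A-AS2 and HIF1A-AS3 were added to HIF1A, an alternative added with the data in view, the log2-fold change was -1.84 (SE 0.062, edgeR quasi-likelihood adjusted p = 7.62e-14).

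Other genes of the HIF pathway were grouped by role, and each group is given by its counts beside the background of 39.2% higher and 38.5% lower and a median log2-fold change of 0.023 over all tested genes.

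Among the 9 genes of oxygen-dependent hydroxylation and VHL-mediated degradation, 8 were tested, of which 3 were higher, 3 lower and 2 did not pass (median log2-fold change 0.023). EGLN3 and EGLN1 encode prolyl hydroxylases that mark HIF alpha, and both are known HIF targets. EGLN3 rose from 2.47 to 261 FPKM and EGLN1 from 13.2 to 38.2 FPKM (log2-fold changes 6.69 and 1.49, SEs 0.20 and 0.057). VHL itself was at 13.3 FPKM in both conditions (log2-fold change -0.051, SE 0.056, edgeR quasi-likelihood adjusted p = 0.408). Its partners in the ligase fell in part: ELOC by 0.84 and CUL2 by 0.64 on the log2 scale (SEs 0.062 and 0.066), whereas ELOB had 0.097 (SE 0.054, edgeR quasi-likelihood adjusted p = 0.113). With a minimum of 10 counts per library, a filter that moved the log2-fold changes of shared genes up by a median of 0.077, ELOB passed as higher at 0.17.

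Of 10 genes that act on HIF alpha independently of oxygen, 4 were higher, 5 lower and 1 did not pass (median -0.11). The HSP90 genes, whose products fold and protect HIF-1 alpha, fell: HSP90AA1 by 1.24 and HSP90AB1 by 0.46 on the log2 scale (SEs 0.055 and 0.052). HSPA8, a chaperone of the HSP70 family, fell by 1.30 (SE 0.070). RACK1, which competes with HSP90 for HIF-1 alpha, rose by 0.24 (SE 0.050) and was the most abundant gene of the group, at 1704 FPKM under hypoxia. MDM2, a ubiquitin ligase that binds p53, rose by 1.02 (SE 0.066).

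Coactivators and the CITED proteins, which compete with HIF for CBP and p300, formed a list of 9 genes, of which 5 were higher, 2 lower and 2 did not pass (median 0.26). CITED2 rose from 2.21 to 7.05 FPKM (log2-fold change 1.63, SE 0.11) and CITED4 from 4.23 to 6.34 FPKM (0.53, SE 0.13). CREBBP, which encodes CBP, fell by 0.51, and KAT5, an acetyltransferase gene, by 0.39 on the log2 scale (SEs 0.053 and 0.067). EP300, which encodes p300, rose by 0.26 (SE 0.077). NCOA3, a steroid receptor coactivator, rose by 0.39 (SE 0.057).

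The other members of the bHLH-PAS family share the dimerization domains of the HIF subunits. Of 11 listed, 9 were in the table and 6 were tested, of which 1 was higher, 4 were lower and 1 did not pass (median -0.34). Like the alpha subunits, the ARNT-like clock genes changed in opposite directions. ARNTL (BMAL1), a core clock activator, rose from 1.62 to 3.73 FPKM (log2-fold change 1.16, SE 0.13), and its paralog ARNTL2 fell from 16.96 to 7.99 FPKM (-1.13, SE 0.053). AHR, the aryl hydrocarbon receptor, which pairs with ARNT, fell by 0.43 (SE 0.056).

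Known regulators of HIF1A transcription and mRNA made up a list of 9, of which 3 were higher, 4 lower and 2 did not pass (median 0.080). NFKB1, a subunit of NF-kB that acts on the HIF1A promoter, fell by 0.86 (SE 0.055), and ELAVL1 (HuR), an RNA-binding protein known to favour HIF-1 alpha translation, by 0.78 (SE 0.057). ZFP36L1, of the family of AU-rich element binding proteins that promote mRNA decay, rose by 0.93 (SE 0.055), from 73.9 to 144.9 FPKM. Its relative ZFP36 had a log2-fold change of 0.22 that passed narrowly (edgeR quasi-likelihood adjusted p = 0.0455), and it lost this call without hypoxia replicate 2 (0.17), hypoxia replicate 3 (0.19), normoxia replicate 2 (0.18) or normoxia replicate 3 (0.17), in the DESeq2 Wald test (0.23) and without the filter on low counts (0.18). STAT3, at -0.14 (SE 0.049), lost its call with a minimum of 10 counts per library.

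Target genes are often read as an output of the pathway, but HIF protein and its binding were not measured in these libraries. The assignment of a target to a single alpha subunit varies between cell types. All 9 genes often assigned to HIF-1 passed as higher (median log2-fold change 1.74), while HIF1A RNA was lower in the same libraries. PFKFB4, a regulator of glycolysis, rose by 3.67 and HK2, a hexokinase, by 2.88 (SEs 0.091 and 0.073). LDHA, which makes lactate, had a log2-fold change of 0.47 (SE 0.059). The enolase gene ENO1, at 0.12, passed narrowly (edgeR quasi-likelihood adjusted p = 0.0428), and it lost its call without hypoxia replicate 1 (0.11), hypoxia replicate 3 (0.093), normoxia replicate 1 (0.079) or normoxia replicate 2 (0.11). The call was also lost without the filter on low counts (0.083).

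Of the 9 genes often assigned to HIF-2, 6 were tested, of which 3 were higher, 2 lower and 1 did not pass (median 0.63). PLIN2, a coat protein of lipid droplets, rose from 64.3 to 417 FPKM (log2-fold change 2.65, SE 0.062). CCND1 (cyclin D1) fell by 2.22 on the log2 scale (SE 0.071). SLC11A2, an iron transporter, had -0.14 (edgeR quasi-likelihood adjusted p = 0.0376) and lost its call without hypoxia replicate 2 (-0.11), hypoxia replicate 3 (-0.13), normoxia replicate 1 (-0.15) or normoxia replicate 2 (-0.12). The DESeq2 Wald test (-0.13) and a minimum of 10 counts per library (-0.059) also ended this call. The 3 genes that were not tested, among them EPO, had at most 3 counts in every library.

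All 7 targets shared by both alpha subunits were higher, with a median log2-fold change of 3.04. They include NDRG1 (5.40, SE 0.30, and 6.03 without normoxia replicate 3), ANGPTL4, a secreted regulator of lipid metabolism (3.89, SE 0.097), and the glucose transporter gene SLC2A1 (1.49, SE 0.050).

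**Figure D5:**
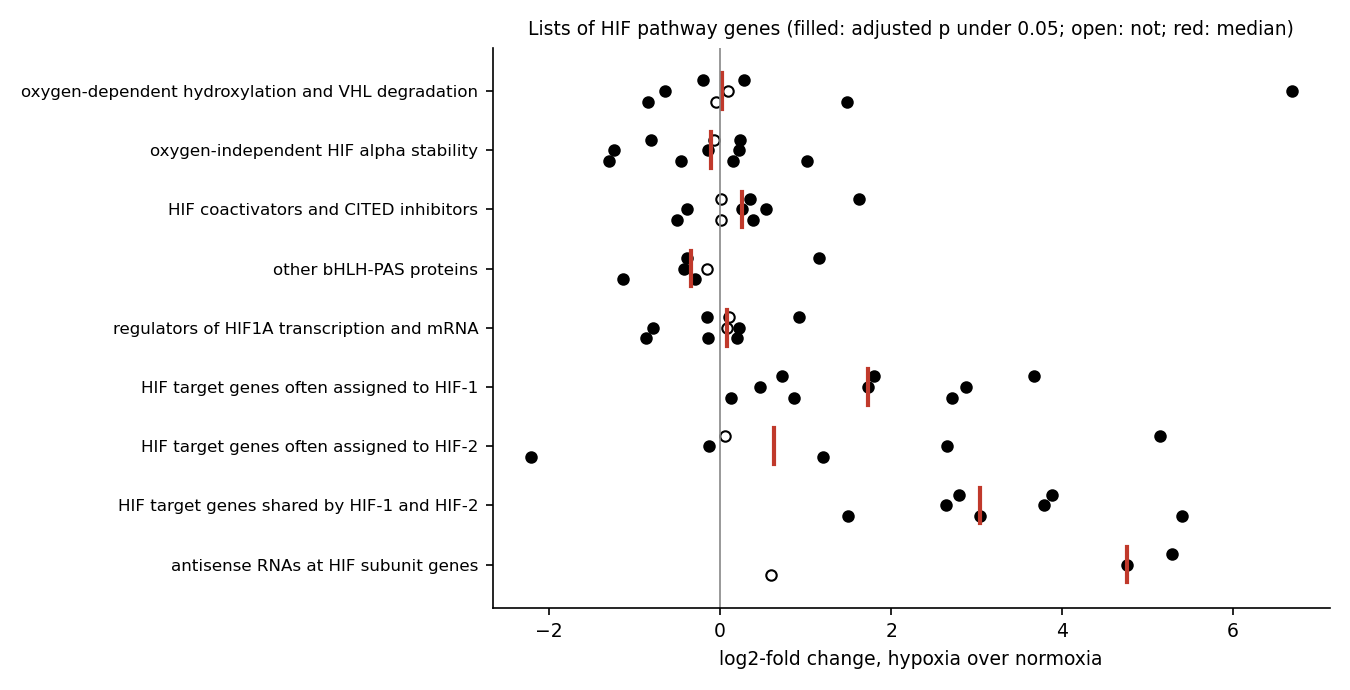
Log2-fold changes (x axis, hypoxia over normoxia) of the tested genes of 9 lists of HIF pathway genes (y axis). Filled points passed an adjusted p-value of 0.05, open points did not, and red lines are list medians. The targets of HIF-1 and the shared targets lie right of 0, and the other lists except the antisense RNAs lie on both sides.

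Genes with a pattern most like that of a subunit were found by the root mean square difference, over the 6 libraries, of log2 CPM (counts scaled to the library total, prior count 2) after the normoxia mean had been subtracted. For HIF1A these were UTP15, a ribosome biogenesis factor (0.084), AMD1, an enzyme of polyamine synthesis (0.097), and CHAC2, a glutathione-degrading enzyme (0.11). For EPAS1 they were LOC100129034 (0.032), the MAX-binding repressor MNT (0.041) and the sorting receptor SORL1 (0.043). For ARNT they were the tyrosine kinase gene PTK2B (0.010), AGBL5, which acts on tubulin (0.024), and the Mediator subunit MED15 (0.026). For ARNT2 they were MANEA-DT (0.18), LOC105375001 (0.20) and TTC23L-AS1 (0.23), further from it than the genes named for the other subunits were from theirs. MANEA-DT, LOC105375001 and TTC23L-AS1 were rare, at 0.0860, 0.0115 and 0.0699 FPKM in normoxia and 0.421, 0.0913 and 0.453 FPKM in hypoxia.

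The epithelial identity of the cells was checked on 7 squamous markers. KRT5 (50.4 FPKM under hypoxia and 55.4 under normoxia) and TP63 (9.82 and 8.74 FPKM) were present, whereas KRT14 had 1 count in 1 library and 0 in the others. The summed FPKM of the list was 184, 173 and 182 in the hypoxia libraries and 239, 235 and 244 in the normoxia libraries, with SFN as its most abundant gene. Of the 6 tested, 2 were higher, 3 lower and 1, TP63, did not pass. KRT6A, a keratin of activated epithelium, fell from 7.02 to 0.417 FPKM (log2-fold change -4.12, SE 0.25), and only 9 tested genes had a more negative value. SFN and KRT5 were lower as well (-0.80, SE 0.057, and -0.18, SE 0.062, on the log2 scale). The desmosomal genes DSG3 and PKP1 rose, DSG3 from 0.781 to 2.06 FPKM and PKP1 from 9.86 to 23.5 FPKM.

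Endothelial cells are known to express EPAS1, and 5 endothelial markers are given beside it. Their summed FPKM was 0.347, 0.267 and 0.337 in hypoxia and 0.0659, 0.0737 and 0.178 in normoxia, most of it from CDH5, the only 1 tested, which was higher under hypoxia (log2-fold change 1.14, SE 0.44, edgeR quasi-likelihood adjusted p = 0.0250). CDH5 had 32, 28 and 34 counts in hypoxia and 9, 9 and 22 in normoxia. PECAM1, VWF, TEK and KDR had at most 10 counts in any library and were not tested. VWF, TEK and KDR had 0 counts in each normoxia library, and PECAM1 had 2, 0 and 0. In hypoxia PECAM1 had 5, 9 and 10, VWF 10, 9 and 4, TEK 1, 2 and 3, and KDR 4, 1 and 1. For all 5 endothelial markers, as for EPAS1, every hypoxia library was above every normoxia library. The conditions did not overlap in 80.5% of the tested genes, in either direction, but this share does not cover PECAM1, VWF, TEK and KDR. Over all genes, 17505, 17128 and 17378 had a count in normoxia replicates 1 to 3. In hypoxia replicates 1 to 3 there were 18841, 18996 and 18766, so more genes were detected in every hypoxia library. The 5 fibroblast markers summed to 3.63, 3.21 and 2.87 FPKM in hypoxia and 0.676, 0.504 and 0.934 in normoxia, nearly all from COL1A1. Of them, 2 were tested and 1 was higher, and DCN and COL3A1 had at most 4 counts in any library. Of the 5 immune markers, 4 were in the table, 2 were tested and 1, CD14, was higher. PTPRC and CD3E had at most 2 counts in any library, and the summed level, mostly from CD68, was between 18.7 and 23.5 FPKM in all libraries. The part of these markers in the changes of the subunit genes was not tested.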

How the data were processed

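RNA-seq libraries of 3 hypoxia and 3 normoxia samples were grouped by their labels. The authors deposited counts, the whole number of reads per gene without normalization, and FPKM for the same genes. For 21775 of the 21776 genes, all 5 subunit genes included, the deposited FPKM follow from the counts, 1 length per gene and the library totals (within 0.001%). The aligner, annotation and counting tool are not given in the sources used here. The submitters' processing notes name only the mouse builds GRCm38 and mm10, although the symbols and Entrez numbers are human. No coordinates were therefore taken from the files. The deposited annotation columns (pathways, GO terms and the like) were not used.

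The test on counts used edgeR 4.0.16 under R 4.3.3 (TMM, filterByExpr, glmQLFit and glmQLFTest, condition as the only term) with Benjamini-Hochberg adjustment over all genes tested and a threshold of 0.05. Standard errors (SE) were obtained as the absolute log2-fold change over the root of the F statistic. CPM were scaled to TMM-adjusted totals. Log2(FPKM + 1) was tested with limma 3.58.1 where the mean reached 1 FPKM. Ratios and shares of FPKM were compared by two-sided exact permutation tests. Every pair of replicates differed beyond counting noise (chi-square of 4.90 to 10.8 per gene). The tests were checked on simulated data with few changed genes and, for counts, a single dispersion. With edgeR, 187 of 194 changed genes among 14086 were recovered, and 5.08% of the calls were false. DESeq2 recovered 174 of 200 (5.43% false), and limma on simulated FPKM 192 of 192 (1.03% false). In the data themselves 77.8% of the genes were called, so the simulation does not show how the tests behave in that setting. The limit given for HIF3A, a count of 3, covers counting error only, whereas the SEs from edgeR include the spread between libraries.

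The subunit genes and lists were chosen with earlier results of these data known. The named genes are the subunits, the 3 genes of most similar pattern for each, the antisense RNAs, and from each pathway list the 2 members with the highest FPKM and the called members with the 2 strongest increases and 2 strongest decreases. One gene that this rule names is not reported here. VHL, EPO, EGLN2, EP300, the cell type markers and the genes beside the subunits were named after their values were seen. Alternatives were DESeq2's size factors, the DESeq2 1.42.0 Wald test, no filter, a minimum of 10 counts per library, a replicate block, omission of single libraries, a pseudocount of 0.1 or no filter for FPKM, and CPM for ratios. Antisense RNAs were matched by Entrez number to RefSeq genes of GRCh38.p14, exons came from GENCODE v29, and promoters came from RefSeq (GRCh38.p14). No sequence was found for ARNT2.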

Additional observations from a re-analysis of the deposited data

How the results depend on the processing

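HIF1A stayed lower, and EPAS1, ARNT and ARNT2 stayed higher, with an adjusted p under 0.05 in every alternative run on the counts. Log2-fold changes ranged from -2.40 to -1.84 for HIF1A, 1.34 to 1.48 for EPAS1, 0.57 to 0.69 for ARNT and 1.85 to 2.49 for ARNT2. The weakest value of HIF1A is the one with the antisense counts added. On the FPKM, HIF1A, EPAS1 and ARNT also kept their direction and call. ARNT2 and HIF3A were below the filter on FPKM, and HIF3A below that on counts, so no value is given for them there. The EPAS1 share differed by 54.9 to 58.1 percentage points over its alternatives and the log2 ratio of alpha to beta transcripts by -1.21 to -0.97, the last with CPM. The exact permutation test cannot go below 0.1 with 3 libraries per condition. The number of genes called lay between 9967 and 11920, against 11090. With at least 10 counts in every library, the 3 antisense RNAs were not tested and 0 of them were called. Same-numbered libraries did not deviate together (correlations from -0.069 to 0.018, and 0 of 3 pairs with their highest correlation at their own number), so the numbers were not treated as pairs. With the replicate number as a block, 10875 genes were called, HIF1A had a log2-fold change of -2.27, and among the named genes ENO1 (0.12), SLC11A2 (-0.14) and ZFP36 (0.22) lost their call. Of the results for other named genes, 21 lost and 1 gained a call, for ENO1, SLC11A2, ZFP36, STAT3 and ELOB, and 0 reversed. Among the genes most like ARNT2, LOC105375001 moved from 2.98 to 2.30 without normoxia replicate 1 and to 3.93 without normoxia replicate 3, and TTC23L-AS1 from 2.70 to 2.02 without normoxia replicate 1.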

Other observations

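Among the genes within 2 places of a subunit gene in the RefSeq order, antisense RNAs aside, changes went both ways. Around EPAS1, at 1.40, the log2-fold changes were 0.40 for PRKCE (SE 0.12), 0.35 for ATP6V1E2 (SE 0.21, edgeR quasi-likelihood adjusted p = 0.146) and 0.19 for RHOQ (SE 0.095, edgeR quasi-likelihood adjusted p = 0.0767). Around ARNT, CTSK, the gene of the protease cathepsin K, had 1.55 (SE 0.23), the histone methyltransferase gene SETDB1 0.32 (SE 0.071) and CTSS 0.19 (SE 0.11, edgeR quasi-likelihood adjusted p = 0.108). Around ARNT2, CEMIP had 2.70 (SE 0.60), ZFAND6 0.41 (SE 0.067), ABHD17C -0.20 (SE 0.080) and FAH, of tyrosine breakdown, -0.54 (SE 0.073). CEMIP was near 0, at 0.0117 FPKM in normoxia and 0.0780 FPKM in hypoxia. Around HIF3A, which was at the limit of detection, LOC93429 had 5.11 (SE 0.68), PPP5C -0.82 (SE 0.058) and IGFL1 -4.68 (SE 0.56). Levels of LOC93429 and IGFL1 were low, at 0.0123 and 1.41 FPKM in normoxia and 0.527 and 0.0535 FPKM in hypoxia.

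EGLN2, the third HIF prolyl hydroxylase gene, is listed at 0 counts in all 3 hypoxia libraries and at 0, 1 and 4 counts in the normoxia libraries, while EGLN1 and EGLN3 each had over 1000 counts in every hypoxia library. The RefSeq gene table also holds the readthrough gene RAB4B-EGLN2, whose span contains EGLN2. How reads on both genes were counted is not stated.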
